A study of Mus musculus with 6 samples.

Results

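The genes described here are 42 members of the glycolytic pathway and of the transcriptional response to low oxygen, taken by gene symbol from the 37991 genes of the deposited count files. All 42 symbols matched an Ensembl mouse identifier. They were split into a glycolytic arm of 23 genes (glucose and lactate transporters, the enzymes from hexokinase to lactate dehydrogenase, the phosphofructokinase regulators and pyruvate dehydrogenase kinase Pdk1) and a hypoxia arm of 19 other genes known to respond to low oxygen. RNA had been sequenced from mouse tumours labelled as cutaneous squamous cell carcinoma, a cancer of skin keratinocytes. One group of 3 libraries carried the genotype Kindlin-1 WT, and the other group of 3 carried Kindlin-1 Null, a knockout of the integrin-binding adaptor encoded by Fermt1. The design asks how expression differs once Kindlin-1 is lost. The sources used here do not give the strain, age or treatment of the host mice, or say whether the null cells are 1 clone.

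Glycolysis splits glucose into pyruvate in the cytosol, and lactate dehydrogenase with the lactate transporters carries the product out of the cell. When oxygen falls, prolyl hydroxylases of the Egln family stop marking the transcription factor subunit HIF-1 alpha for destruction, and the stabilised factor binds hypoxia response elements with the core A/G-CGTG. Its targets include most glycolytic genes, Vegfa, carbonic anhydrase Car9 and several mitochondrial proteins. Solid tumours often show high levels of these transcripts, either because oxygen is low or because signalling drives glycolysis at normal oxygen.

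Libraries differed widely in depth, from 161711 reads in genes (wild-type library 2) to 31487255 (null library 2), and a floor of 3 reads stood at 18.3 CPM in wild-type library 2 and at 2.75 CPM or less in the others. CPM are reads per 1000000 reads in genes after TMM scaling. The targeted gene Fermt1 went with the labels (reads of 16, 2 and 1040 in wild type, and of 0, 2 and 2 in null tumours). Titles give wild-type libraries 1 and 2 a shared mouse number, and null libraries 2 and 3 another, so n = 3 counts libraries, and p-values measure their spread alone, part of which may be technical. The test described below treats all libraries as independent. In the fit with a random effect for mouse number, libraries sharing a number had a correlation of 0.597. The file of null library 3 is named for another mouse than its title, so the null pair is in doubt, and values that sum the pairs or use mouse number rest on the titles. Keratinocyte markers were low: 12 of them summed to 83.2 to 129 CPM in wild type and 48.9 to 54.3 CPM in null tumours, Krt5 did not exceed 3.9 CPM and Krt6b had 0 reads in all libraries. By contrast, 10 macrophage markers summed to 3674 to 7569 CPM and 8 fibroblast markers to 6843 to 14610 CPM over the 6 libraries. Of 6 keratinocyte markers tested, 2 were lower in null tumours by the test described below, against 3.52% of all genes. These were Krt14 (26.3 to 45.3 CPM in wild type, 5.12 to 10.6 in null tumours) and Pkp1 (25.2 to 43 and 3.68 to 6.78 CPM). The other 4 overlapped between the groups. By the same test, 2 of 8 fibroblast markers were higher in null tumours (Lum, Dcn) and 2 lower (Col1a2, Thy1). Of 10 macrophage markers 0 passed, and of 3 tested adipocyte markers 2 were lower (Cfd, Lpl). The shares over all genes were 2.26% higher and 3.52% lower. In such bulk RNA, fewer cells of a type and less RNA per cell cannot be told apart.

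Promoter sequences are shown for the 5 members that passed the test described below, and for Ldha as a glycolytic gene that did not. The sequences are the 250 bases before the annotated start, from RefSeq on GRCm38.p6, printed 5′ to 3′ on the gene's own strand. Capitals mark every ACGTG or GCGTG on either strand (on the opposite strand read as CACGT or CACGC), which overlap where both strands match. Slc16a1 (chr3:104638414-104638663, plus strand) held 4 matches, Ddit4 (chr10:59951771-59952020, minus strand) 2, Bnip3 (chr7:138909507-138909756, minus strand) 5, Higd1a (chr9:121857797-121858046, minus strand) 2, Fam162a (chr16:36071562-36071811, minus strand) 6, and the upstream start of Ldha (chr7:46845554-46845803, plus strand) 5.
Slc16a1: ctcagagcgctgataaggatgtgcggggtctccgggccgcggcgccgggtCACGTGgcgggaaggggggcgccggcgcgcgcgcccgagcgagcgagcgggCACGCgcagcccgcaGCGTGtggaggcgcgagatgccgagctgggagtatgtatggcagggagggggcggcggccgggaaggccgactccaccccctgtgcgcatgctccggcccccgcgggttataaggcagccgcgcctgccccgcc
Ddit4: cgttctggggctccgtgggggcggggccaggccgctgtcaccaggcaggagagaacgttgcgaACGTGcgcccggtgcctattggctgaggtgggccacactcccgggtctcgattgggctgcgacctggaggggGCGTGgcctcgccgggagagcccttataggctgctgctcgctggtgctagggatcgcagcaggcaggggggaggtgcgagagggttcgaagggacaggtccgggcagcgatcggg
Bnip3: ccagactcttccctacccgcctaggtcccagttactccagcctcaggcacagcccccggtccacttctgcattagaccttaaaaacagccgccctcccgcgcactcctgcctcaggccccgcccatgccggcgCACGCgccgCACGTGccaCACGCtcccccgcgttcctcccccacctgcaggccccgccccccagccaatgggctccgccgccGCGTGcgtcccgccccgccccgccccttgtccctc
Higd1a: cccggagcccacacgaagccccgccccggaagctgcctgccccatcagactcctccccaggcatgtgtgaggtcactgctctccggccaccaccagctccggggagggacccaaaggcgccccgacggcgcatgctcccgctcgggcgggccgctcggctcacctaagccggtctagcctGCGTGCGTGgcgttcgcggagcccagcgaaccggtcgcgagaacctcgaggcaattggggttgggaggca
Fam162a: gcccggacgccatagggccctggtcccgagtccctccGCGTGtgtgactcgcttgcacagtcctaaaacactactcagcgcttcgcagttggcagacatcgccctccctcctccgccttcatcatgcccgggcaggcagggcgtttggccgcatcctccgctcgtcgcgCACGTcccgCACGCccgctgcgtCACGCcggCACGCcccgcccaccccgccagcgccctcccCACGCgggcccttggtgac
Ldha: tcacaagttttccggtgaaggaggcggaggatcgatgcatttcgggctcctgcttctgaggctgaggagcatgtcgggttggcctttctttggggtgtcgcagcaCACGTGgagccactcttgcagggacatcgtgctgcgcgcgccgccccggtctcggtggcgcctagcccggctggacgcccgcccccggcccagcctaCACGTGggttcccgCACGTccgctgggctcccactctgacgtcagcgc

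Of the 42 members 37 had an entry in the promoter table, and 33 of these held the core at 1 or more starts. Over all genes of the table the share was 41.5%. A gene with more starts has more places for a match. Counted by promoter, the core was in 73.7% for the members (77.1% glycolytic, 68.2% hypoxia) and in 38.6% over the whole table. Presence of the core did not separate the arms, with 19 of 22 glycolytic and 14 of 15 hypoxia genes, nor the tested members by outcome, with 5 of 5 that rose and 27 of 30 that did not pass. A match of 5 letters is a description of these windows and not a site.

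Among the 42 members, the lactate transporter Slc16a1, the growth regulator Ddit4 and the mitochondrial genes Bnip3, Higd1a and Fam162a were higher in null tumours, by 2.01-fold to 6.52-fold. The enzymes of glycolysis themselves did not pass, and neither did Vegfa, Car9 or Hif1a. Of the members 40 had enough reads to be tested, 5 rose and 0 fell (edgeR's quasi-likelihood test, Benjamini-Hochberg adjusted over all 11887 genes tested). At an unadjusted p under 0.05, 11 were higher and 2 lower, a cut that 12.1% of all genes tested passed as higher and 13% as lower. DESeq2 called 5 higher and 0 lower, with Slc2a1 in place of Higd1a, where it called 2.44% of all genes higher. Over all genes tested 5.79% passed, 2.26% as higher and 3.52% as lower in null tumours. One of 23 tested glycolytic genes and 4 of 17 tested hypoxia genes rose. The median log2 fold change, null minus wild type, was 0.15 in the glycolytic arm, 0.79 in the hypoxia arm and 0.01 over all genes tested. All 3 null values lay above all wild-type values for 13 of the 40 members and below them for 1, against 16.2% and 14.3% of all genes tested.

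**Figure D1:**
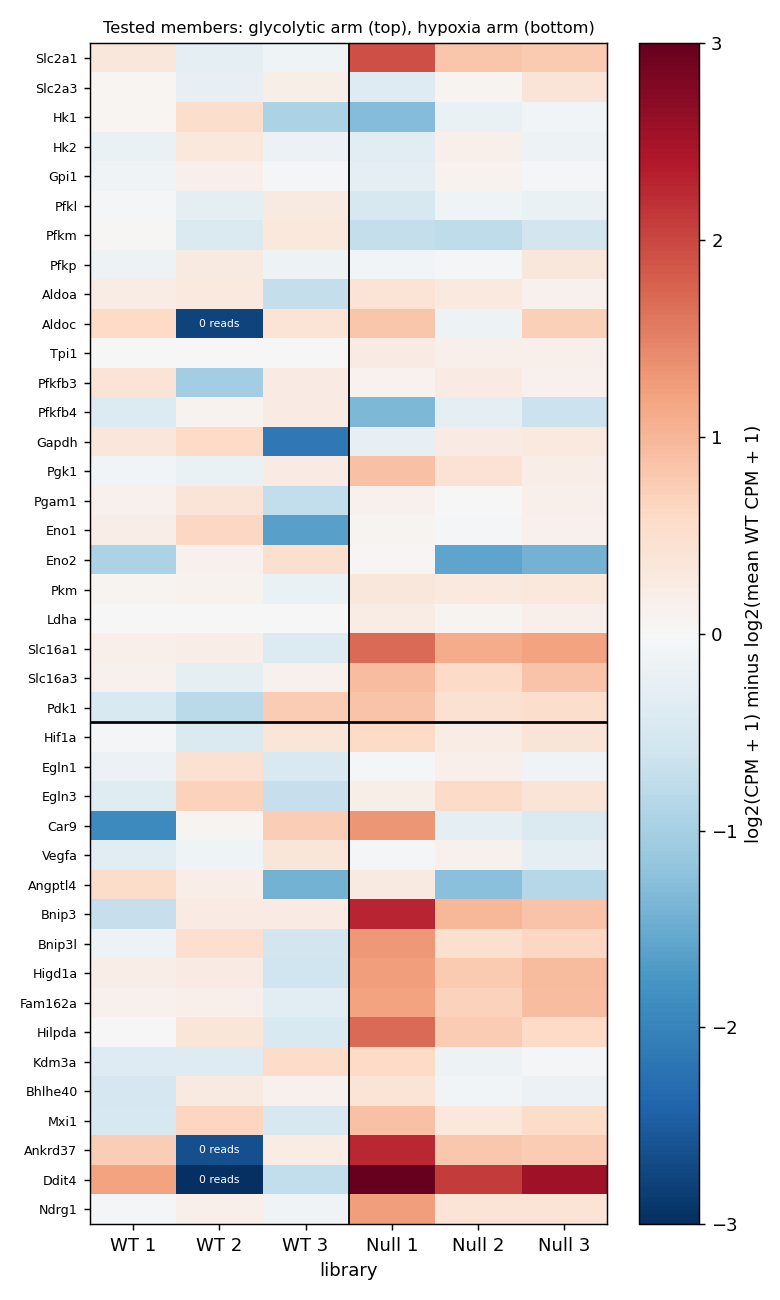
Each row is 1 of the 40 tested members (glycolytic arm above the line, hypoxia arm below) and each column 1 library. Colour gives log2(CPM + 1) minus the same for the mean of the 3 wild-type libraries, cut at 3 on either side. Null library 1 holds the strongest red in the hypoxia arm, for example 2.29 for Bnip3 against 1.01 and 0.86 in the other null libraries, and wild-type library 3 is bluest for Gapdh (-2.14) and Eno1 (-1.64). Cells marked 0 reads are Aldoc, Ankrd37 and Ddit4 in wild-type library 2.

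The 5 calls rested on few libraries. With null library 1 left out, 0 of 42 tested members passed as higher, when 0.456% of all genes still did, while 9 were higher and 2 lower at an unadjusted p under 0.05 (edgeR; 7.97% and 10.3% of all genes in that fit). Without wild-type library 3 only Slc16a1 passed, beside 0.761% of all genes. Members passing as higher numbered 3 after leaving out wild-type library 1 (3.28% of all genes), 2 for wild-type library 2 (1.59%), 4 for null library 2 (1.83%) and 3 for null library 3 (0.818%). Among fits on all libraries, upper quartile scaling gave 6 members (2.47% of all genes), DESeq2 size factors in edgeR 5 (2.21%), no filter on low counts 6 (1.47%) and a filter of 10 CPM in 3 libraries 2 (1.88%). Summing both library pairs with the same mouse number gave 5 (1.36%; Slc2a1 and Hilpda in place of Higd1a and Fam162a), summing the wild-type pair alone 2 (1.27%), and a limma-voom fit with a random effect for mouse number 6 (4.48%). Slc16a1 and Ddit4 were called in every one of these fits on all libraries or summed pairs. Null library 1 had the highest value of the 6 libraries for 13 of 17 tested hypoxia genes and 10 of 23 glycolytic genes, against 25.2% of all genes tested. The median of the hypoxia arm without null library 1 was 0.41 and that of the glycolytic arm 0.13.

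Glucose entry was measured by 2 transporters. Slc2a1 encodes GLUT1, the basal glucose transporter of most proliferating cells, and stood at 84.3, 55.3 and 60.7 CPM in wild-type libraries 1 to 3 and at 259, 120 and 117 CPM in null libraries 1 to 3. All null values were above all wild-type values, and null library 1 was the highest. The log2 fold change was 1.25 (SE 0.34) with an adjusted p of 0.0506 by edgeR, just outside the threshold. Slc2a1 passed with upper quartile scaling (adjusted p = 0.0486), in DESeq2 (0.0199), without a filter on low counts (0.0245), with both mouse pairs summed (0.0471) and after leaving out null library 2 (0.0375), and stood at 0.163 without null library 1. It did not pass in the random-effect fit (0.0533), with the wild-type pair summed (0.0914) or with the filter of 10 CPM (0.06). Slc2a3, encoding the high-affinity transporter GLUT3, had 7.81, 6.14 and 8.61 CPM in wild type and 5.53, 7.99 and 10.2 CPM in null tumours. These values overlapped (log2 fold change 0.02, SE 0.40, edgeR adjusted p = 0.982).

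The 9 enzymes from hexokinase to triosephosphate isomerase gave no call, with log2 fold changes from -0.77 to 0.29. Muscle-type phosphofructokinase Pfkm was the one whose groups stood apart downward, at 93.7, 67.6 and 114 CPM in wild type against 55.3, 53.8 and 62 CPM in null tumours. Its log2 fold change was -0.77 (SE 0.25, edgeR adjusted p = 0.081). Liver-type Pfkl stood at 216, 184 and 267 CPM in wild type and 159, 204 and 193 CPM in null tumours, overlapping, and platelet-type Pfkp differed by 0.15 (SE 0.25). Triosephosphate isomerase Tpi1 was the steadiest enzyme, with 1016, 1008 and 994 CPM in wild type and 1193, 1116 and 1120 CPM in null tumours. The null values were all higher, but the fold of 1.14 did not pass (edgeR adjusted p = 0.688). Hexokinases Hk1 and Hk2, which trap glucose as its phosphate, Gpi1 and the aldolases Aldoa and Aldoc overlapped between the groups, with log2 fold changes between -0.30 and 0.29.

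Skeletal muscle RNA moved with genotype in the same libraries. The 20 muscle markers summed to 701 to 1815 CPM in wild type and 63.9 to 151 CPM in null tumours. Of 18 tested markers 16 fell, against 3.52% of all genes tested, and none of the 20 had 0 reads throughout. The part of muscle RNA in the lower Pfkm values was not tested. Among glycolytic genes outside the 42, the muscle isoform Pgam2 fell from 13.6 ± 1.28 CPM to 3.96 ± 1.4 CPM (SD, n = 3) on average (-2.00 on the log2 scale, SE 0.42, edgeR adjusted p = 0.0186), a call lost with some libraries left out (highest adjusted p 0.097, passing in 3 of 6 fits). The muscle enolase Eno3 stood at -0.62 (SE 0.27, adjusted p = 0.173).

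The bifunctional enzymes Pfkfb3 and Pfkfb4 set the level of fructose 2,6-bisphosphate, an activator of phosphofructokinase, and neither passed. Pfkfb4 stood at 42.9, 61.4 and 67.7 CPM in wild type and 22.1, 47 and 36.6 CPM in null tumours, with 1 null value inside the wild-type range (log2 fold change -0.64, SE 0.31, edgeR adjusted p = 0.211). Pfkfb3 had 18.7, 6.14 and 16.4 CPM in wild type against 14.7, 16.5 and 15.1 CPM in null tumours, where the wild-type spread covered all null values.

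The lower part of the pathway, from glyceraldehyde-3-phosphate to pyruvate, was read through 6 genes and gave no call. Phosphoglycerate kinase Pgk1 was at 440, 405 and 559 CPM in wild type and 859, 630 and 536 CPM in null tumours, so that 1 null value lay under the highest wild-type value (log2 fold change 0.52, SE 0.28, edgeR adjusted p = 0.273). Neuronal-type enolase Eno2 stood at 14.1, 30.7 and 39.1 CPM in wild type and at 28.6, 8.62 and 9.84 CPM in null tumours. Null libraries 2 and 3 were below all wild-type libraries and null library 1 was not (log2 fold change -1.09, SE 0.50, edgeR adjusted p = 0.194, or -1.67 without null library 1). Pyruvate kinase Pkm, which makes pyruvate and ATP, was at 1914, 1960 and 1585 CPM in wild type and 2285, 2227 and 2259 CPM in null tumours, all null values above, yet 1.24-fold and not past the test (edgeR adjusted p = 0.499).

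Gapdh, often used as a reference gene, varied widely among the wild-type libraries. It stood at 631, 750 and 112 CPM in wild type (in the order of libraries 1 to 3, as throughout) and at 418, 594 and 605 CPM in null tumours. Wild-type library 3 was thus well under all other libraries. The log2 fold change was 0.16 (SE 0.51, edgeR adjusted p = 0.874) and turned to -0.37 without that library. Enolase Eno1 went the same way, with 360, 479 and 99.9 CPM in wild type and 330, 306 and 344 CPM in null tumours, and so did mutase Pgam1 (284, 338 and 156 CPM in wild type, 260 to 289 CPM in null tumours) and Aldoa (964, 1001 and 503 CPM, then 899 to 1087 CPM). Reads of Gapdh per read of Tpi1 were 0.621, 0.744 and 0.112 in wild type and 0.351, 0.532 and 0.54 in null tumours, whereas those of Ldha per read of Tpi1 kept between 1.1 and 1.18 in all 6.

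**Figure D2:**
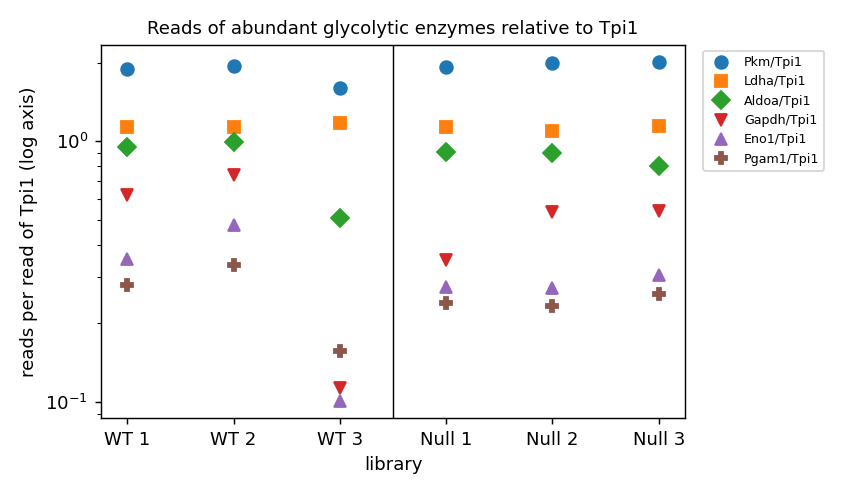
Reads of 6 glycolytic enzymes divided by reads of Tpi1 in the same library, on a log axis, with 1 symbol per enzyme and 1 column per library. Ldha stays between 1.1 and 1.18 everywhere, while Gapdh, Eno1, Pgam1 and Aldoa drop in wild-type library 3 (0.112 for Gapdh, 0.1 for Eno1).

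These enzymes have near-identical copies in the mouse genome, to which reads can be lost. Of the distinct 36-base stretches in the transcripts of Gapdh 61.5% also occurred in other annotated genes, 87 of which shared at least 10% of them. The share was 52.4% for Eno1, 68.2% for Pgk1, 42% for Pgam1 and 67.7% for Bnip3. It was 26.5% for Higd1a, but 0% for Slc16a1 and Ddit4 and 1.96% for Slc2a1. The 18.1% of Fam162a was shared with Wdr5b, a gene with reads of its own (183 in wild-type library 3, 289 in null library 2). Matches on either strand were counted, so a share need not mean a copy. Wild-type library 3 also had the largest share of reads with several alignments, 40% of listed reads against 32.9% to 35.9% in the others. That library also had the lowest sums of macrophage (3674 CPM) and fibroblast markers (6843 CPM). The part of those lost reads, or of these cells, in the low Gapdh and Eno1 values was not tested. Eno1b, a copy that shares 51.3% of the stretches of Eno1, had 152 reads against 1600 for Eno1 in wild-type library 3 and 69 against 461 in wild-type library 1. The levels of these genes, and of Bnip3 and Higd1a, are therefore uncertain. That of Fam162a is uncertain to the extent that reads could not be assigned between it and Wdr5b, which was not tested.

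On a length scale (mean CPM per kilobase of annotated exon, a level and not a difference), Tpi1 (365), Pkm (364) and Ldha (348) were the highest members in wild type. Pkm (451), Tpi1 (415) and Ldha (388) were so in null tumours. This order is one of counted reads. Shared stretches, to which reads can be lost, differ between genes (61.5% for Gapdh, at 120 in wild type, and 13.1% for Tpi1). The transporters were far scarcer, at 19 for Slc2a1 and 14.5 for Slc16a1 in wild type and 47.2 and 37.9 in null tumours. Slc16a3 stood at 1.46 in wild type and 2.66 in null tumours, and Slc2a3 at 1.04 and 1.09. Among hypoxia genes Fam162a was highest, at 97.6 in wild type and 191 in null tumours.

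Pyruvate and lactate genes held the one glycolytic call. Slc16a1 encodes MCT1, a proton-coupled carrier that moves lactate and pyruvate across the plasma membrane in either direction. It stood at 71.1, 73.7 and 48.2 CPM in wild type and at 212, 141 and 151 CPM in null tumours, with no overlap. The mean rose from 64.3 ± 14 to 168 ± 38.5 CPM (SD, n = 3), 2.73-fold (log2 fold change 1.45, SE 0.28, edgeR adjusted p = 0.0129). Among the members this call was the most stable: it held in 5 of 6 fits with 1 library left out and was lost without null library 1, where the fold was 2.38 and the adjusted p 0.0521.

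Slc16a3 encodes MCT4, the lactate exporter that hypoxia induces in many cells, and was much lower in reads than Slc16a1. Its values were 8.59, 6.14 and 8.55 CPM in wild type and 15.7, 12 and 14.8 CPM in null tumours, again without overlap, but the gene did not pass (log2 fold change 0.72, SE 0.36, edgeR adjusted p = 0.228). In wild-type library 2 this was 1 read. Ldha, which converts pyruvate to lactate, was at 1152, 1137 and 1169 CPM in wild type and 1350, 1224 and 1282 CPM in null tumours. All null values were above by a small margin, 1.11-fold, and the gene did not pass (edgeR adjusted p = 0.743). Pdk1, which inhibits pyruvate dehydrogenase, had 32, 24.6 and 75.6 CPM in wild type and 80.1, 60.6 and 63.9 CPM in null tumours. Its groups overlapped through wild-type library 3 (edgeR adjusted p = 0.488).

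**Figure D3:**
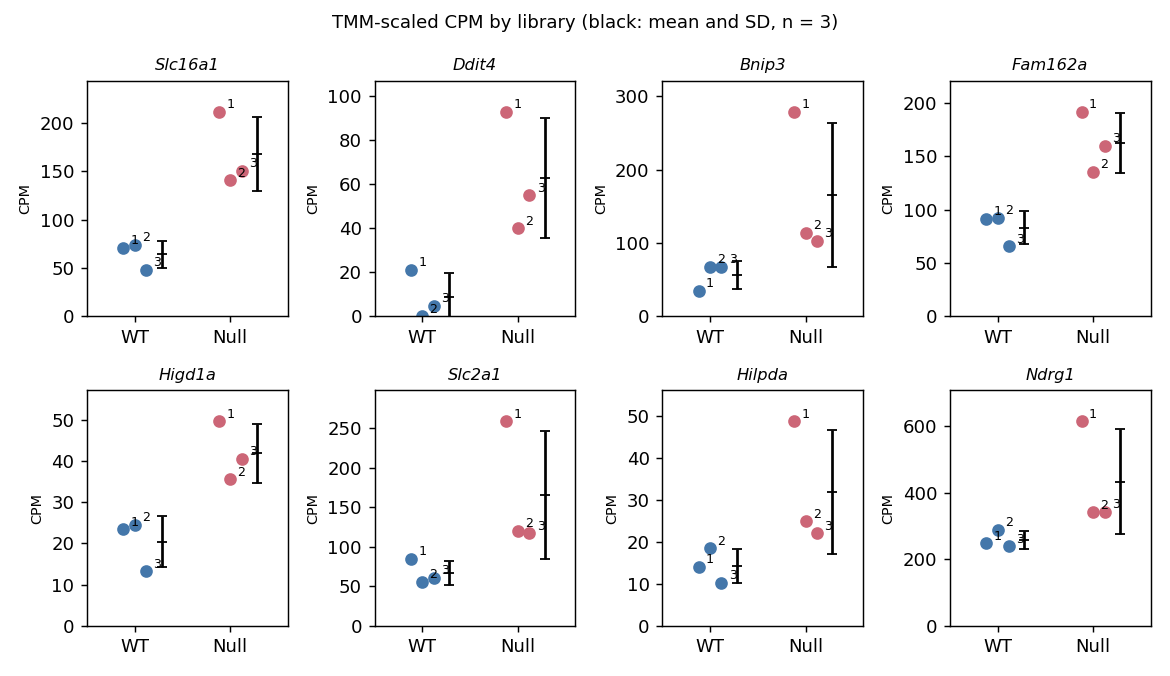
TMM-scaled CPM of 8 members by library (numbers are library numbers, black marks the mean and SD, n = 3, axes start at 0). All 8 belong to the 13 tested members whose null values all lay above the wild-type values, so that feature of the panels follows from the choice. The groups overlapped for 26 of the 40 tested members. Slc16a1, for example, stood at 141 to 212 in null tumours against 48.2 to 73.7 in wild type. Null library 1 is the highest point in each panel.

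In the hypoxia arm, Hif1a and the hydroxylase genes Egln1 and Egln3 did not pass. Hif1a, which encodes the oxygen-regulated subunit, had 98.4, 73.7 and 128 CPM in wild type and 151, 117 and 130 CPM in null tumours, overlapping at 1 value (log2 fold change 0.32, SE 0.26, edgeR adjusted p = 0.451). Since the protein is controlled by destruction, its transcript level does not read its activity. Egln3, a hydroxylase gene that is itself induced by HIF, was at 23.4, 49.1 and 18.3 CPM in wild type and 34.1, 45.4 and 39.9 CPM in null tumours. Wild-type library 2, where the value is 8 reads, lay above all null libraries (log2 fold change 0.79, SE 0.33, edgeR adjusted p = 0.156). Egln1, the main hydroxylase, differed by 0.14 (SE 0.27).

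Genes for pH control and secreted factors, which include the most used hypoxia markers, did not go with genotype. Car9 was low throughout, at 0.781, 6.14 and 10.2 CPM in wild type and 15.7, 4.5 and 3.93 CPM in null tumours. Null library 1 was the highest and wild-type library 1 the lowest, each on few reads (17 and 1). The log2 fold change of -0.07 (SE 0.68, edgeR adjusted p = 0.959) leaves the direction undetermined. Vegfa, the main angiogenic factor, stood at 99.9, 117 and 165 CPM in wild type and 124, 139 and 103 CPM in null tumours (log2 fold change -0.09, SE 0.26, edgeR adjusted p = 0.869). Angptl4, an inhibitor of lipoprotein lipase, had 39.8, 30.7 and 9.42 CPM in wild type and 32.2, 10.6 and 14.2 CPM in null tumours, with all null values inside the wild-type range (edgeR adjusted p = 0.663). The secreted glycoprotein Stc2 had too few reads to be tested, from 0 to 3.9 CPM. For endothelial cells, on which VEGF acts, none of the 10 markers passed (0 also at an unadjusted p under 0.05, edgeR), and their sums were 248 to 336 CPM in wild type and 308 to 406 CPM in null tumours.

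Mitochondrial and mitophagy genes were the role group with the most calls, 3 of 4, all higher, against 2.26% of all genes tested. Bnip3 encodes an outer-membrane protein that marks mitochondria for removal in hypoxia. It had 34.4, 67.6 and 67.2 CPM in wild type and 279, 114 and 103 CPM in null tumours, all null values above and library 1 far above the other null libraries. The mean went from 56.4 ± 19.1 to 165 ± 98.6 CPM (SD, n = 3), 2.96-fold (log2 fold change 1.57, SE 0.41, edgeR adjusted p = 0.0428). Without null library 1 the fold was 1.95 (adjusted p = 0.168), and the call was also lost without each of the wild-type libraries 1 to 3 (0.0958, 0.0637 and 0.1). With the wild-type pair summed Bnip3 stood at 0.0736, with both pairs summed at 0.00961 and in the random-effect fit at 0.0505.

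Fam162a, a mitochondrial protein induced by HIF-1, had 91.4, 92.2 and 65.4 CPM in wild type and 192, 135 and 160 CPM in null tumours. The groups did not overlap and the fold was 2.01 (log2 fold change 1.01, SE 0.26, edgeR adjusted p = 0.0424). Higd1a, a small inner-membrane protein that supports respiration under low oxygen, had 23.4, 24.6 and 13.2 CPM in wild type and 49.7, 35.6 and 40.5 CPM in null tumours, 2.32-fold (log2 fold change 1.22, SE 0.33, edgeR adjusted p = 0.0467). Both calls lay near the threshold. That of Fam162a was lost whichever library was left out (adjusted p 0.056 to 0.137) and that of Higd1a without any library but wild-type library 1 (highest 0.23). With both mouse pairs summed the adjusted p was 0.13 for Fam162a and 0.0916 for Higd1a, with the wild-type pair summed 0.0675 and 0.0628, and in the random-effect fit 0.0336 and 0.0263. Bnip3l, which encodes the related mitophagy receptor NIX, had 93.7, 147 and 70.4 CPM in wild type and 259, 146 and 160 CPM in null tumours, touching at wild-type library 2 (log2 fold change 0.98, SE 0.32, edgeR adjusted p = 0.087).

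Lipid storage was read through Hilpda, which sits on lipid droplets and blocks their breakdown. It stood at 14.1, 18.4 and 10.2 CPM in wild type and 48.8, 24.9 and 22 CPM in null tumours. Its null values were all higher, without passing (log2 fold change 1.32, SE 0.40, edgeR adjusted p = 0.0685). Hilpda passed with both mouse pairs summed (0.0478) and in the random-effect fit (0.0433), but not with the wild-type pair summed (0.0832). The lipoprotein receptor gene Vldlr was too low to be tested, with 1.87 to 6.14 CPM in wild type and 1.81 to 2.95 CPM in null tumours.

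Among regulators of growth, transcription and chromatin, Ddit4 changed most of all members. It encodes REDD1, which restrains mTORC1 signalling under hypoxia, energy stress and glucocorticoids. Its values were 21.1, 0 and 4.81 CPM in wild type and 93, 40 and 55.1 CPM in null tumours, with reads of 27, 0 and 77 and of 101, 1263 and 280. The 0 in wild-type library 2 allows up to 18.3 CPM (3 reads), which is still under the lowest null value. The mean rose from 8.63 ± 11 to 62.7 ± 27.3 CPM (SD, n = 3), and the fitted fold was 6.52 (log2 fold change 2.71, SE 0.57, edgeR adjusted p = 0.0189). This fold moved to 3.36 without wild-type library 3 (adjusted p = 0.11) and to 13.1 without wild-type library 1 (0.00214). The call was also lost without null library 1 (5.02-fold, 0.0937).

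The other regulators did not pass. Ndrg1, a stress-induced growth suppressor, had 248, 289 and 238 CPM in wild type and 615, 341 and 342 CPM in null tumours, without overlap (log2 fold change 0.75, SE 0.30, edgeR adjusted p = 0.139). Mxi1, a Myc antagonist, had 35.9, 79.9 and 36 CPM in wild type and 94, 63.1 and 74.2 CPM in null tumours, with wild-type library 2 inside the null range (0.86, SE 0.31, edgeR adjusted p = 0.113). Ankrd37 stood at 1.07 (SE 0.55). The histone demethylase Kdm3a and the repressor Bhlhe40 differed by 0.09 each (SE 0.32 and 0.28).

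**Figure D4:**
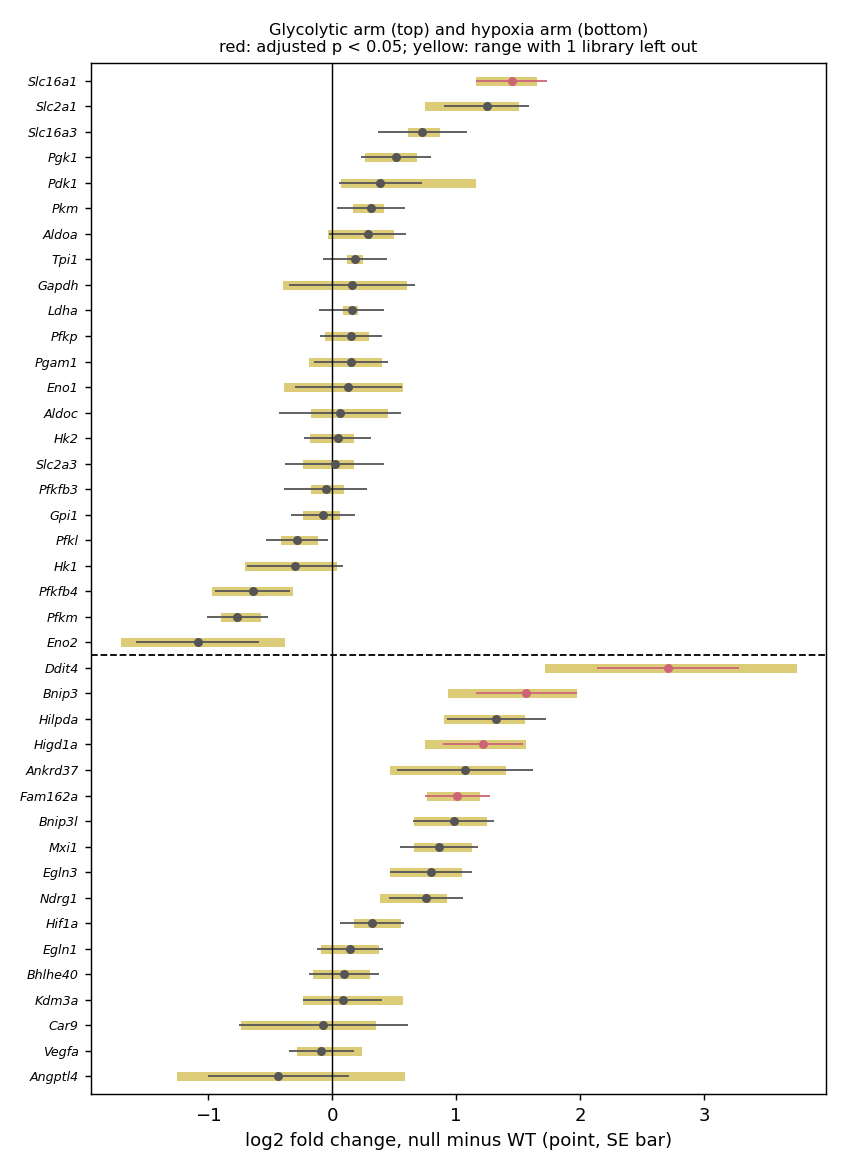
Log2 fold change (null minus wild type) of each tested member with its SE, by arm and ordered by size. Red points passed at an adjusted p of 0.05, and the yellow bar spans the 6 fits that each left out 1 library. The glycolytic arm centres near 0 (median 0.15), most of the hypoxia arm lies to the right (median 0.79), and the bars of Ddit4 (1.75 to 3.71) and Angptl4 (-1.22 to 0.55) are the widest of the hypoxia arm.

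The arms were set against each other within each library, as the mean log2 CPM of the tested glycolytic members minus that of the tested hypoxia members. Over all 40 the difference was 1.61, 1.58 and 1.45 in wild type and 0.46, 1.11 and 1.16 in null tumours, with no overlap. Wild-type library 2 had 0 reads for Aldoc, Ankrd37 and Ddit4, however. With only the 22 glycolytic and 15 hypoxia members that had reads in all 6 libraries the differences were 1.58, 1.06 and 1.25 in wild type and 0.50, 1.11 and 1.14 in null tumours. These overlap, and null library 1 alone stood below all wild-type libraries. The mean level of these 22 glycolytic members was 7.0 ± 0.11 in wild type and 7.18 ± 0.02 in null tumours, and that of the 15 hypoxia members 5.70 ± 0.27 and 6.26 ± 0.37 (log2 CPM, SD, n = 3). As fitted fold changes, the glycolytic median was 0.65 under the hypoxia median, and 0.28 under it without null library 1. No p is given for these values, since the members were chosen with earlier results known.

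**Figure D5:**
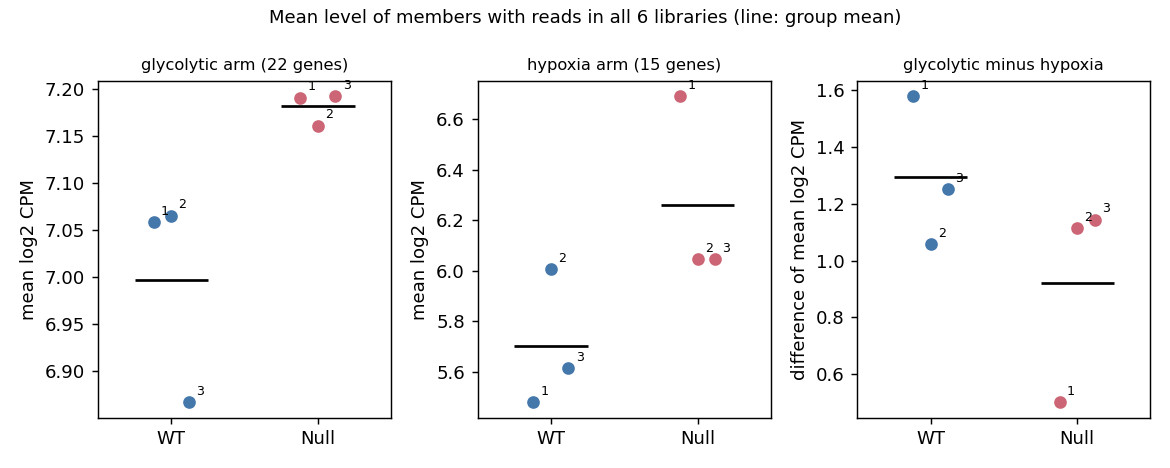
Mean log2 CPM over the 22 glycolytic (left) and 15 hypoxia members (middle) with reads in all 6 libraries, and their difference (right); points are libraries with their numbers and lines group means. Axes do not start at 0. Null library 1 stands at 6.69 in the hypoxia panel against 6.05 for both other null libraries, and the differences of the groups overlap (1.06 to 1.58 against 0.50 to 1.14).

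Other genes of these pathways, on lists also set with earlier results of these data known, gave few calls. Of 11 tested genes of the HIF machinery 0 passed (edgeR), with 2 at an unadjusted p under 0.05, which 25.1% of all genes tested met in either direction. The closest were Cited2, which competes with HIF for its coactivator (0.88, SE 0.32, adjusted p = 0.115), Arnt2 (-1.24, SE 0.49, 0.138) and Arnt, the constitutive partner of HIF-1 alpha (0.52, SE 0.24, 0.206). Of 7 pentose phosphate genes 0 passed, with 2 at an unadjusted p under 0.05 (25.1% of all genes), and Rpe was nearest at 0.88 (SE 0.30, edgeR adjusted p = 0.0967). Of 15 tested other glycolytic and pyruvate genes 0 rose and 1 fell, the Pgam2 already described, against 2.26% and 3.52% of all genes tested. Pdha1, the catalytic subunit of pyruvate dehydrogenase (0.99, SE 0.28, edgeR adjusted p = 0.055), and Mpc2, a subunit of the mitochondrial pyruvate carrier (1.22, SE 0.36, 0.063), came next.

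Of 25 tested other hypoxia-responsive genes 2 rose and 0 fell, against 2.26% and 3.52% of all genes tested. At an unadjusted p under 0.05 by edgeR, 7 of the 25 were higher and 6 lower (12.1% and 13% of all genes). The median over the 25 was -0.06. Hmox1, the haem-degrading oxygenase, rose from 46.8 ± 23.7 CPM to 98.1 ± 23.5 CPM (SD, n = 3) on average (1.36 on the log2 scale, SE 0.33, edgeR adjusted p = 0.0333) and passed in 2 of 6 fits with 1 library left out (highest 0.147). Insig2, which holds back sterol synthesis, rose from 28.9 ± 1.75 to 72.7 ± 22 CPM (1.34, SE 0.29, edgeR adjusted p = 0.0205) and passed in 4 of 6 (highest 0.0833). On the other side Lox, a collagen crosslinking enzyme induced by HIF, stood at -1.78 (SE 0.53, adjusted p = 0.0667). The median of this wider list thus lay near that of all genes tested.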

How the data were processed

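RNA was sequenced from 3 wild-type and 3 null tumours. The authors deposited whole-number read counts per Ensembl gene, 1 file per library, unnormalized as the values show. TopHat2, Cuffdiff, DESeq2 and the build mm9 are named in the submitters' processing notes without role or version. The sources used here do not give the counting program, its annotation or whether strand was used. Antisense overlaps can therefore not be told apart from the gene itself. The 5 closing lines for reads in no gene stayed out. Reads with several alignments were 32.9% to 40% of listed reads, and reads in no gene 7.15% to 12% in wild type and 4.63% to 5.84% in null files.

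Symbols came from GENCODE M21 and RefSeq tables of GRCm38 by Ensembl identifier (32919 of 37991, 86.6%). Because the builds differ, coordinates are given only for RefSeq promoters. Null was tested against wild type with edgeR 4.0.16 in R 4.3.3 (TMM, default expression filter, robust quasi-likelihood) and Benjamini-Hochberg adjustment over all genes tested at 0.05, and the code was tested on simulated data. SE is the fold change over the root of F. Mean log2 CPM used a prior count of 3. Alternatives used DESeq2 1.42.0 and limma 3.58.1. Floors of 3 counts cover counting error only.

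Library values are given for members that passed, for the 2 with the smallest p in each role group, for Slc2a1, Pgk1, Ldha, Gapdh, Car9, Vegfa and Hif1a, and, chosen after their values were seen, for Tpi1, Pkm, Eno1, Pgam1, Aldoa, Pdk1, Bnip3l and Ndrg1. Of the other pathway genes, those that passed and up to 3 with the smallest p were named, with Eno3 added after its values were seen. Members and lists were chosen with earlier results of these data known. Replicate numbers follow the order of samples and pair nothing.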

Additional observations from a re-analysis of the deposited data

How the results depend on the processing

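No paired analysis was possible because the labels give the libraries no replicate numbers that the groups share. The 5 members that rose kept their direction in every alternative run. With 1 library left out, the number of genes called ranged from 179 to 855 (against 688), the glycolytic members called higher from 0 to 2 (against 1), the hypoxia members called higher from 0 to 2 (against 4), and the difference of arm medians from -0.79 to -0.28. The lowest count of genes and the smallest arm difference came without null library 1, and the highest count of genes without wild-type library 1. The glycolytic count was 2 (Slc16a1 and Slc2a1) with upper quartile scaling, in DESeq2, without a filter on low counts and after summing both mouse pairs. The hypoxia count was 1 with a filter of 10 CPM in 3 libraries and 1 with the wild-type pair summed, in both cases Ddit4. Members lower in null tumours were 0 in every alternative run (1 to 3 at an unadjusted p under 0.05, which 9.63% to 14.1% of all genes met as lower). Of the uncalled members, some turned sign: Slc2a3 (-0.20 to 0.13 with 1 library left out, -0.17 with both pairs summed, -0.012 with the wild-type pair summed, -0.15 with mouse number as a random effect), Car9 (-0.70 to 0.31, 0.29 in DESeq2, 0.28 with both pairs summed), Angptl4 (-1.22 to 0.55, 0.091 with the random effect), Gapdh (-0.37 to 0.56), Vegfa (-0.25 to 0.20) and Pfkfb3 (-0.14 to 0.052). Sign also turned with 1 library left out for Eno1 (-0.36 to 0.53), Pgam1 (-0.16 to 0.36), Aldoa (-0.0019 to 0.45), Aldoc (-0.14 to 0.41) and Pfkp (-0.028 to 0.26). The same held for Hk2 (-0.15 to 0.13), Gpi1 (-0.20 to 0.023), Egln1 (-0.057 to 0.34), Kdm3a (-0.20 to 0.53) and Bhlhe40 (-0.12 to 0.27). For these, and for the moved counts, the cause was not tested. The counts by arm used 36 to 42 tested members. The arm difference over members with reads in all 6 libraries (-0.60) was added after seeing the data. Wild-type library 2, at 161711 reads, limits every gene under 18.3 CPM.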
